A study of Mus musculus with 63 samples.

Results

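The genes described here encode heat shock proteins, the cochaperones that work with them and the factors that regulate both. They were taken from a fixed list of 35 genes, and a listed gene counted as measured when it had a probe set annotated with its symbol alone. Where several such probe sets existed, the one with the highest mean over all arrays was used. In all 32 of the 35 listed genes were measured, out of 19938 measured genes. Of these 32, 18 of 19 listed genes are inducible by heat shock factor 1 (HSF1), 13 of 14 are made constitutively, and Hsf2 is 1 of 2 listed regulators. Hspa1b, Hsp90ab1 and Hsf1 had no probe set of their own symbol and are not analysed here.

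The study profiled Eµ-myc lymphomas with 63 Affymetrix arrays, each with its own lymphoma number. Eµ-myc mice carry a Myc transgene under the immunoglobulin heavy-chain enhancer, which is active in B-lineage cells, and they develop B-cell lymphomas. All groups share that transgene and the C57BL/6 background, and RNA came from lymph node lymphoma cells that were not cultured. In 31 arrays the label reads CTX 4h, taken 4 h after cyclophosphamide, a DNA-alkylating drug. A single dose of 300 mg/kg in transplanted recipient mice is labelled for 29 of these. The other 32 arrays are labelled native and serve as the untreated group. The same protocol text is also attached to the native arrays at 100 ng of RNA, and to no array at 300 ng. It therefore does not tell treated from native arrays, and only the CTX 4h or native label does. The labelling reaction started from 300 ng of RNA in 2 treated and 17 native samples. It started from 100 ng in the remaining 29 treated and 15 native samples. The 100 ng arrays fall into 3 number series, by the first digit of the lymphoma number. Numbers starting with 1 comprise 6 CTX 4h and 7 native arrays, those starting with 8 comprise 9 and 3, and those starting with 9 comprise 14 and 5. The numbers of the 300 ng arrays start with 8 or 9 too. The 300 ng arrays and these 3 series are called batches below, which is a name for label classes and not for a known laboratory step. The series text speaks of therapy-naive samples alone, so the treated group rests on the array labels. The labels do not settle the host of the native lymphomas, and they do not state that arrays came from separate mice, so p-values measure only the spread between these samples.

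Chaperones bind unfolded or partly folded proteins and help them fold, assemble or be degraded. Under proteotoxic stress HSF1 forms trimers, binds heat shock elements made of inverted GAA repeats and switches on HSP70, HSP90, small heat shock proteins and their cochaperones. The constitutive members fold newly made proteins at all times, and MYC-driven lymphoma cells make much protein.

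Native replicates 8 and 19 stood apart from the other arrays before any comparison was made. On the deposited log2 scale Myc stood at 11.39 and 10.64 in them and at no less than 12.36 elsewhere. In both arrays 21 of the 32 members lay below all other native arrays. Native replicate 8 was the lowest of all 63 arrays for 22 members. The shares of all genes with such values were not counted. Other lists lay low in the same arrays. The mean of 18 MYC target genes was 9.41 and 9.57, against no less than 10.75 in the other native arrays. That of 17 G2 and mitosis genes was 8.30 and 8.11, against no less than 10.03. For Cct3, a subunit of the cytosolic chaperonin, these arrays gave 8.96 and 9.86, against 11.66 to 12.86 in the other 30 native arrays. For Hsp90aa1, the inducible HSP90, they gave 10.32 and 10.82, against 12.13 to 13.39. Hspb8 ran the other way, with 7.51 and 8.06 against 5.98 to 7.46. Results that rest on these arrays are therefore given with and without them. Of 8 B-cell markers 7 were measured, and Cd79b lay between 12.37 and 13.44 in all arrays, while Cd79a ranged from 8.38 to 13.03. Ms4a1 ranged from 7.54 to 13.24, Ebf1 from 8.09 to 12.41 and Blnk from 9.16 to 12.21. Pax5 ranged from 9.32 to 11.68 and Cd22 from 10.31 to 11.72. The mean of these markers was 10.44 and 11.18 in native replicates 8 and 19, within the 9.96 to 12.08 of the other native arrays.

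Promoter windows from RefSeq (GRCm38.p6, 250 bases before to 50 after a start) were found for 30 of the 35 listed genes. They are shown because members that share heat shock element letters can be read beside their values. A motif of 3 units, GAANNTTCNNGAA or TTCNNGAANNTTC, each being the other read on the opposite strand, occurred in 0.603% of all 32851 windows. It occurred in windows of 5 members, namely Hspd1 and Hspe1, whose windows overlap on opposite strands and share the letters, Chordc1, Hsph1 and Dnajb6. A motif of 2 units, GAANNTTC or TTCNNGAA, both of which read the same on either strand and lie within the longer motif, occurred in 15.1% of windows and 17% of genes. By gene it was found for 13 of 18 inducible and 3 of 11 constitutive members with a window. Below, capitals mark the 3-unit letters in Hspe1, Chordc1 and Hsph1 and the 2-unit letters in Hspa1a, Hspb1 and Hspb8. The stretches of Hspa1a (chr17:34972157-34972406, minus strand) and Hspb1 (chr5:135887669-135887918, plus strand) are the 250 bases before the start. The others are 30 bases around the motif, at chr1:55088053-55088082 (plus) for Hspe1, chr9:18292259-18292288 (plus) for Chordc1, chr5:149636280-149636309 (minus) for Hsph1 and chr5:116422844-116422873 (minus) for Hspb8.
Hspa1a: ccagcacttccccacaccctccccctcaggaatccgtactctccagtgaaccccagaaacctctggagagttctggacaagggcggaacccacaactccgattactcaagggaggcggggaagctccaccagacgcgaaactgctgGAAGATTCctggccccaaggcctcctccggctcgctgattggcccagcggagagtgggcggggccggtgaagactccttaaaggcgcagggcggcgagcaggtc
Hspb1: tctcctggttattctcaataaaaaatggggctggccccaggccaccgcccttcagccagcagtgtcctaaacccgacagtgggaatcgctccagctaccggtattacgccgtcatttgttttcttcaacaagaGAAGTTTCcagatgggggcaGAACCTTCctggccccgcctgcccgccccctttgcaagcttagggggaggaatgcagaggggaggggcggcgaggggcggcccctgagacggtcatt
Hspe1: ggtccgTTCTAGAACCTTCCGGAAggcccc
Chordc1: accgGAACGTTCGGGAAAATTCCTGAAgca
Hsph1: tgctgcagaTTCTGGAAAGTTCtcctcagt
Hspb8: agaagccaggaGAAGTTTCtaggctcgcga
In Chordc1 the units ran on without a gap over the start, with 3 overlapping matches of the longer motif. The letters describe these windows only, and no binding was measured.

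Levels 4 h after cyclophosphamide were compared with native lymphomas with RNA input in the model. The comparison asks which chaperone genes differed in lymphomas soon after the drug. Hspb8, a small heat shock protein that works with BAG3 in selective autophagy, was the only member called higher, and no member was called lower (limma, Benjamini-Hochberg adjusted p under 0.05 over all genes). Over all 19938 genes 1.41% were called higher and 1.26% lower, 2.67% in all, so 1 of 32 members is near the background. The median difference was -0.09 on the log2 scale over the members, with 22 of 32 below 0. Over all genes it was -0.01, with 46% of genes above 0. For the inducible members the median was -0.10 and for the constitutive members -0.06. At an unadjusted p under 0.05 there were 2 members higher and 5 lower, and 17.5% of all genes passed that mark.

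**Figure D1:**
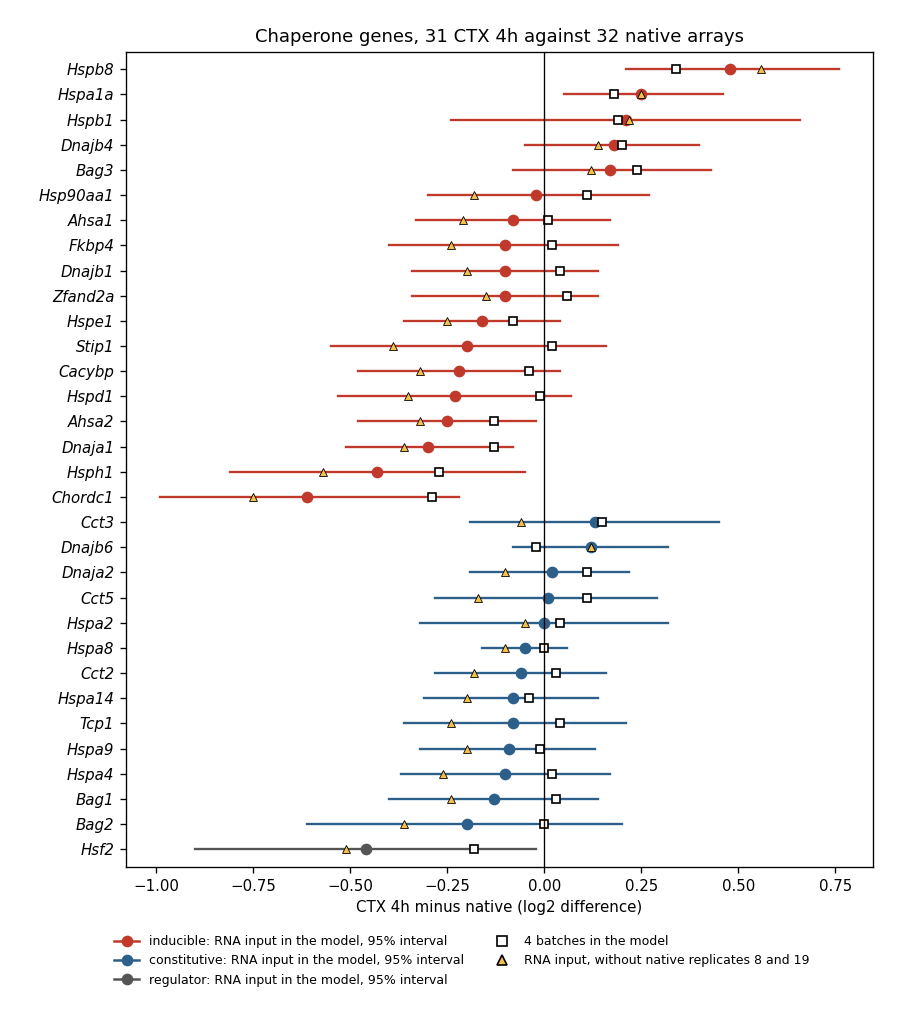
Log2 difference of CTX 4h minus native for the 32 measured members, grouped as inducible, constitutive and regulator. Circles and bars are the estimates and 95% intervals with RNA input in the model, squares the model with 4 batches, and triangles the estimates without native replicates 8 and 19. Hspb8 and Chordc1 mark the ends at 0.48 and -0.61, and the squares of most members lie nearer to 0 or above it.

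Hspb8 had values of 6.12, 7.04 and 8.67 (lowest, median and highest) in CTX 4h arrays and 5.98, 6.66 and 8.06 in native arrays. The groups overlapped over most of their range, and 23 of 31 CTX 4h arrays lay above the native median. The difference was 0.48 ± 0.14 (SE, limma adjusted p = 0.0368), with a 95% interval of 0.21 to 0.76. It was positive in each batch, at 0.13 ± 0.23, 0.37 ± 0.27 and 0.47 ± 0.21 (SE) for numbers starting with 1, 8 and 9. At 300 ng, with 2 CTX 4h arrays, it was 0.39 ± 0.30 (SE). None passed within a batch (limma, smallest adjusted p = 0.519). Hspa1a and Dnajb4 were also above 0 in each batch. With the 4 batches in the model the difference of Hspb8 was 0.34 ± 0.12 (SE, adjusted p = 0.21), and without native replicates 8 and 19 it was 0.56 ± 0.13 (SE, adjusted p = 0.00364). With both changes it was 0.40 ± 0.11 (SE, adjusted p = 0.0348). Leaving out 1 array at a time kept the call in 50 of 63 cases, with adjusted p from 0.0092 to 0.0742. The call was lost without CTX 4h replicate 2, 9, 11, 23, 30 or 31 and without any of native replicates 9 to 15. The signal of Hspb8 was low, with a mean of 6.84 over all arrays, above those of 45.2% of genes. That of Hspa1a was 7.14, above those of 50.3% of genes. Medians of single arrays ran from 6.53 to 7.11, so both members lay near them. The part of background signal in their values was not tested.

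Markers of other cells moved in the same comparison as Hspb8. The mean of 12 macrophage markers was higher by 0.39, with 2 of 12 called, and ran over 7.96, 9.01 and 10.16 (lowest, median, highest) in CTX 4h and 8.27, 8.73 and 9.20 in native arrays. The mean of 10 stromal and endothelial markers was higher by 0.31, with 5 of 10 called, at 8.52, 9.42 and 10.20 in CTX 4h and 8.50, 9.10 and 9.71 in native arrays. With both scores in the model Hspb8 differed by 0.42 (adjusted p = 0.145). Small nucleolar and other small RNA genes were higher by 0.75, with 33 of 59 called, and with their score in the model Hspb8 differed by 0.28 (adjusted p = 0.57). Immediate early genes were higher by 0.48, with 9 of 15 called, and ran over 7.42, 7.94 and 8.64 in CTX 4h and 7.30, 7.61 and 8.21 in native arrays. Adipocyte markers were higher by 0.79, with 2 of 6 called, at 6.68, 8.25 and 10.54 in CTX 4h and 6.61, 7.91 and 9.39 in native arrays. Salivary gland markers were higher by 1.85, with 2 of 5 measured called, and ran widely in both groups, at 4.73, 7.04 and 12.78 in CTX 4h and 4.50, 6.83 and 12.50 in native arrays. B-cell, T-cell and erythroid markers differed by -0.22, -0.40 and 0.33 with none called. The mean of 17 G2 and mitosis genes was lower by 0.64, with 7 called. The part of cell makeup or RNA composition in the difference was not tested further, and in such bulk samples fewer cells of a type and less RNA per cell cannot be told apart.

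The other HSP70 and small heat shock genes did not pass the threshold. Hspa1a, the classical stress-inducible HSP70, had 6.33, 7.12 and 7.94 (lowest, median, highest) in CTX 4h and 6.51, 7.10 and 8.09 in native arrays. Its group ranges coincided almost wholly, and with RNA input held the difference was 0.25 ± 0.10 (SE, adjusted p = 0.181). It was above 0 in all 4 batches, from 0.06 to 0.39. Hspa1b is a near-identical copy, so signal from the pair cannot be separated with certainty. Hspb1, a small heat shock protein that holds unfolded proteins, differed by 0.21 ± 0.22 (SE, adjusted p = 0.656). Its values spread far more than the difference, over 7.05 to 10.06 in CTX 4h and 6.89 to 11.23 in native arrays. Hsph1, an HSP110 that exchanges nucleotide for HSP70, had a lower estimate at -0.43 ± 0.19 (SE, adjusted p = 0.221). Its values were 8.64, 9.64 and 10.98 in CTX 4h and 7.96, 10.07 and 11.46 in native arrays. The constitutive HSP70 family members Hspa2, Hspa4, Hspa8, Hspa9 and Hspa14 had differences between -0.10 and 0.00.

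Hsp90aa1 did not pass in either direction. The 31 treated arrays had a Hsp90aa1 mean of 12.69 ± 0.28 (SD) and the 32 native arrays one of 12.65 ± 0.63 (SD), with a difference of -0.02 with a 95% interval of -0.30 to 0.27. The difference is the value with RNA input held, and so need not follow the plain means. It was -0.18 ± 0.09 (SE, adjusted p = 0.144) without native replicates 8 and 19, and with 1 array left out at a time it ran from -0.16 to 0.03. Among its cochaperones Chordc1, a zinc-binding partner of HSP90, had the lowest estimate of all members. It was -0.61 ± 0.19 (SE, adjusted p = 0.0735), from 8.25, 9.14 and 10.63 (lowest, median, highest) in CTX 4h and 7.62, 9.63 and 11.15 in native arrays. In 25 of 31 CTX 4h arrays it lay below the native median, although the ranges overlapped. The remaining HSP90 partners had lower estimates that did not pass. They were Ahsa1 and Ahsa2, which stimulate its ATPase, at -0.08 and -0.25, Stip1, the bridge to HSP70, at -0.20, the immunophilin Fkbp4 at -0.10 and Cacybp at -0.22.

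The J-domain proteins, which deliver clients to HSP70, were not called either. Dnaja1 was at -0.30 ± 0.11 (SE, adjusted p = 0.12) with values of 10.33, 10.77 and 11.72 (lowest, median, highest) in CTX 4h and 10.19, 10.99 and 11.82 in native arrays. The probe sets used for Hspa8, Hsp90aa1, Hspb1, Hspd1, Hspe1 and Dnaja1 have identifiers that neighbour probe sets of another chromosome, so near-identical copies may share their signal; for the first 5 the set at the gene's own place followed the one used, with r of at least 0.86 over 63 arrays. Dnaja1 is uncertain, since the probe set used for it and another of the same symbol, which lies among probe sets of the gene's own chromosome, had r = -0.19 over the 63 arrays. Dnajb1, a core HSF1 target, was at -0.10, Dnajb4 at 0.18, Dnajb6 at 0.12 and Dnaja2 at 0.02. The BAG genes, nucleotide exchange factors of HSP70, were at 0.17 for Bag3, -0.13 for Bag1 and -0.20 for Bag2. The mitochondrial chaperonin genes Hspd1 and Hspe1 were at -0.23 and -0.16. The cytosolic chaperonin subunits Cct2, Cct3, Cct5 and Tcp1 lay between -0.08 and 0.13. Hsf2, a second heat shock factor, was at -0.46 ± 0.22 (SE, adjusted p = 0.259), and Zfand2a, an HSF1 target that acts on the proteasome, at -0.10.

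The direction of these small differences depended on batch and on the arrays that stood apart. With the 4 batches in place of RNA input 0 members were called, against 1.05% of all genes. At an unadjusted p under 0.05 there were 1 higher and 1 lower (9.96% of all genes). Of the estimates 20 of 32 lay above 0 with a median of 0.02, against 43.3% of all genes above 0. In the 100 ng arrays with number series in the model 0 members were called, against 0.0752% of all genes (0.0602% higher), with 1 higher and 0 lower at an unadjusted p under 0.05 (6.3% of all genes). There 26 of 32 estimates were above 0, against 48.4% of all genes. Members vary together, so such tallies do not count independent genes. Without native replicates 8 and 19, and with RNA input in the model, 1 member was called higher and 8 lower, against 4.2% and 8.31% of all genes. In both of those arrays 21 of the 32 members lay below all other native arrays, a count that was not made over all genes. Leaving them out therefore raises the native means of these members and lowers their estimates in advance. The 8 called lower were Chordc1 (-0.75), Hsph1 (-0.57), Stip1 (-0.39), Dnaja1 (-0.36), Cacybp (-0.32), Ahsa2 (-0.32), Hspa4 (-0.26) and Hspe1 (-0.25), so 7 were inducible and 1 constitutive. Estimates of both classes were alike, with medians of -0.22 for inducible and -0.18 for constitutive members, against 0.00 over all genes. Below 0 lay 13 of 18 inducible and 12 of 13 constitutive members, and a difference between the classes was not tested. With the 4 batches and without these arrays 1 was called higher and 1 lower, Hspb8 and Chordc1, against 1.1% and 1.53% of all genes, 2.63% in all. Of the estimates 26 of 32 then lay below 0, among them all 13 constitutive members, with a median of -0.11, while 48% of all genes lay above 0. The tally above 0 in the model with batches was therefore not kept without those arrays. Without them and with RNA input in the model 26 of 32 also lay below 0, with a median of -0.20, while 50.9% of all genes lay above 0. Chordc1 differed with batches and without those arrays by -0.42 ± 0.10 (SE, adjusted p = 0.00742).

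**Figure D2:**
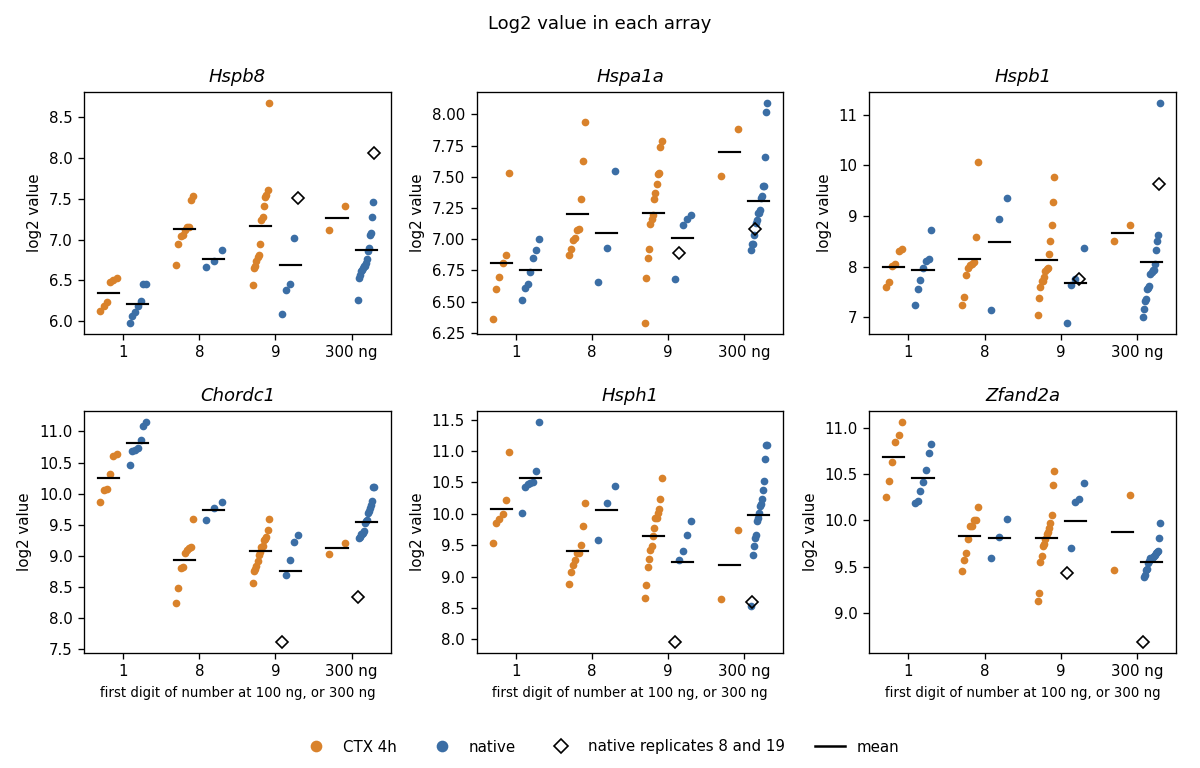
Deposited log2 values of 6 members in each array, by first digit of the lymphoma number for the 100 ng arrays and for the 300 ng arrays, with CTX 4h left of native in each batch. Bars are means and open diamonds native replicates 8 and 19. Chordc1 and Zfand2a are highest in the series starting with 1 in both groups, and a single native array reaches 11.23 for Hspb1.

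Within batches Chordc1 had the clearest split among numbers starting with 8. There it ran from 8.25 to 9.60 in 9 CTX 4h arrays and from 9.57 to 9.87 in 3 native arrays, a difference of -0.81 ± 0.25 (SE, adjusted p = 0.793). For numbers starting with 1 it ran from 9.87 to 10.63 in CTX 4h and from 10.46 to 11.15 in native arrays, a difference of -0.55 ± 0.20 (SE, adjusted p = 1). For numbers starting with 9 the estimate was 0.31, where native replicate 8 gave 7.62 and the other 4 native arrays 8.70 to 9.33, and at 300 ng it was -0.42. In the series starting with 9, 29 of 32 members lay above 0 with a median of 0.32. This tally was not made over all genes, and it rested on native replicate 8. Without that array 16 lay above and 15 below 0 to 2 decimals, and 1 at 0.00, with a median of 0.01. The difference of Chordc1 was then 0.03, that of Hsp90aa1 0.07 (0.51 with the array) and that of Stip1 0.04 (0.54 with it), while Hspb8 stood at 0.67 (0.47 with it) and Hspa2 at 0.53 (0.58 with it). The test of treatment by batch called 0 of the 32 members and 0 of 19938 genes (limma F test, smallest adjusted p among members 0.611). At an unadjusted p under 0.05 there were 4 members, and 4.66% of all genes. Treatment by RNA input called 0 members, against 0.0201% of all genes (0.00502% lower; limma, smallest adjusted p among members 0.722, that of Hspa2).

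RNA input was compared among native arrays alone, 300 ng against 100 ng. Zfand2a was the only member called, and it was lower at 300 ng (0.015% of all genes were called lower, 0.15% in either direction). It had 8.69, 9.59 and 9.97 (lowest, median, highest) at 300 ng and 9.43, 10.21 and 10.82 at 100 ng. All 17 arrays at 300 ng lay below the 100 ng median, though the ranges met. The difference was -0.62 ± 0.12 (SE, limma adjusted p = 0.0205). By batch its native means were 9.55 at 300 ng and 10.46, 9.81 and 9.99 for numbers starting with 1, 8 and 9, so the series starting with 1 held the highest values. Hspa1a was higher at 300 ng by 0.41 ± 0.11 (SE, adjusted p = 0.0892), with means of 7.30 ± 0.34 (SD, n = 17) at 300 ng and 6.90 ± 0.28 (SD, n = 15) at 100 ng. Numbers starting with 1 occur at 100 ng alone, while those starting with 8 or 9 occur at both inputs. Over native arrays whose numbers start with 8 or 9 Zfand2a was 8.69, 9.59 and 9.97 in 17 arrays at 300 ng and 9.43, 9.92 and 10.40 in 8 arrays at 100 ng. With the first digit in the model, an alternative added after seeing the data, the difference was -0.35 ± 0.13 (SE, limma adjusted p = 0.679) and that of Hspa1a 0.23 ± 0.14 (SE, adjusted p = 0.679). No member and 0 of 19938 genes passed there, with 1 member higher and 1 lower at an unadjusted p under 0.05. The call for Zfand2a was thus not made without the series starting with 1.

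The number series starting with 1 differed from the rest in both groups for several members. Chordc1 was 10.46 to 11.15 in its 7 native arrays, against 7.62 to 10.11 in the other 25 native arrays. In its 6 CTX 4h arrays Chordc1 was 9.87 to 10.63, against 8.25 to 9.60 in the other 25. The ranges did not meet in either group. Among native arrays the same held for Hspd1 (12.54 to 13.13, against 10.44 to 12.51), Dnaja1 (11.50 to 11.82, against 10.19 to 11.45) and Cacybp (12.78 to 13.16, against 10.59 to 12.70). That is 4 of 32 members higher and 0 lower, where 1.45% and 0.772% of all genes had such ranges. Among CTX 4h arrays Hsf2 joined Chordc1, at 8.18 to 8.81 against 5.51 to 7.98, which is 2 of 32 members higher and 0 lower, where 1.33% and 1.4% of all genes did. Without native replicates 8 and 19 the median native difference of series 1 was 0.38 over members, 0.31 over the 2319 genes with a mean of 10 or more and -0.01 over all genes. The MYC target score was higher there by 0.49, the G2 and mitosis score by 0.68, and the small RNA score was lower by 1.48. Hspb8 went the other way, with 6.21 ± 0.18 (SD, n = 7) in native arrays of series 1 and 6.74 ± 0.31 (SD, n = 23) in the others. So did Dnajb6 and Hspa1a, with native differences of -0.65 and -0.48, against -0.52 for Hspb8. In CTX 4h arrays the differences of Dnajb6, Hspa1a and Hspb8 were -0.68, -0.44 and -0.82. These are the members with the lowest means over all arrays, at 6.59, 7.14 and 6.84. Native differences of Cct3, Hspb1 and Hspa2 were below 0 by less. The same 4 members lay higher without native replicates 8 and 19, where 1.5% of all genes did, and 0 lower, where 0.933% did. Against the other 100 ng native arrays alone 7 members lay higher, with Hspa8, Hsp90aa1 and Stip1 added, where 7.8% of all genes did, and 0 lower, where 4.65% did. Without native replicate 8 these shares of all genes were 7.87% and 5.08%. These series differences were not tested, and their cause cannot be told from the labels.

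Co-variation was then described over arrays of 1 group, with each gene taken as its deviation from its batch mean. Over the 30 native arrays without replicates 8 and 19, the median Pearson r was 0.32 over the 153 pairs of inducible members, 0.56 over the 78 pairs of constitutive members and 0.33 between the classes. Over all pairs of genes the median was 0.03, and over pairs of genes with a mean of 10 or more it was 0.29. That level is not matched to the inducible members, of which 10 of 18 have a mean under 10. Among the core HSF1 targets Hspa1a, Hspb1, Hsph1, Hsp90aa1, Dnajb1, Bag3 and Zfand2a the median was 0.22, and 1 of 21 pairs was over 0.5. Across the 31 CTX 4h arrays the medians were 0.22 for inducible, 0.45 for constitutive and 0.16 for core pairs. Including both arrays that stood apart, the native medians were 0.53 and 0.82, and 0.59 for pairs of genes with a mean of 10 or more. Points share arrays, and genes are not independent replicates.

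**Figure D3:**
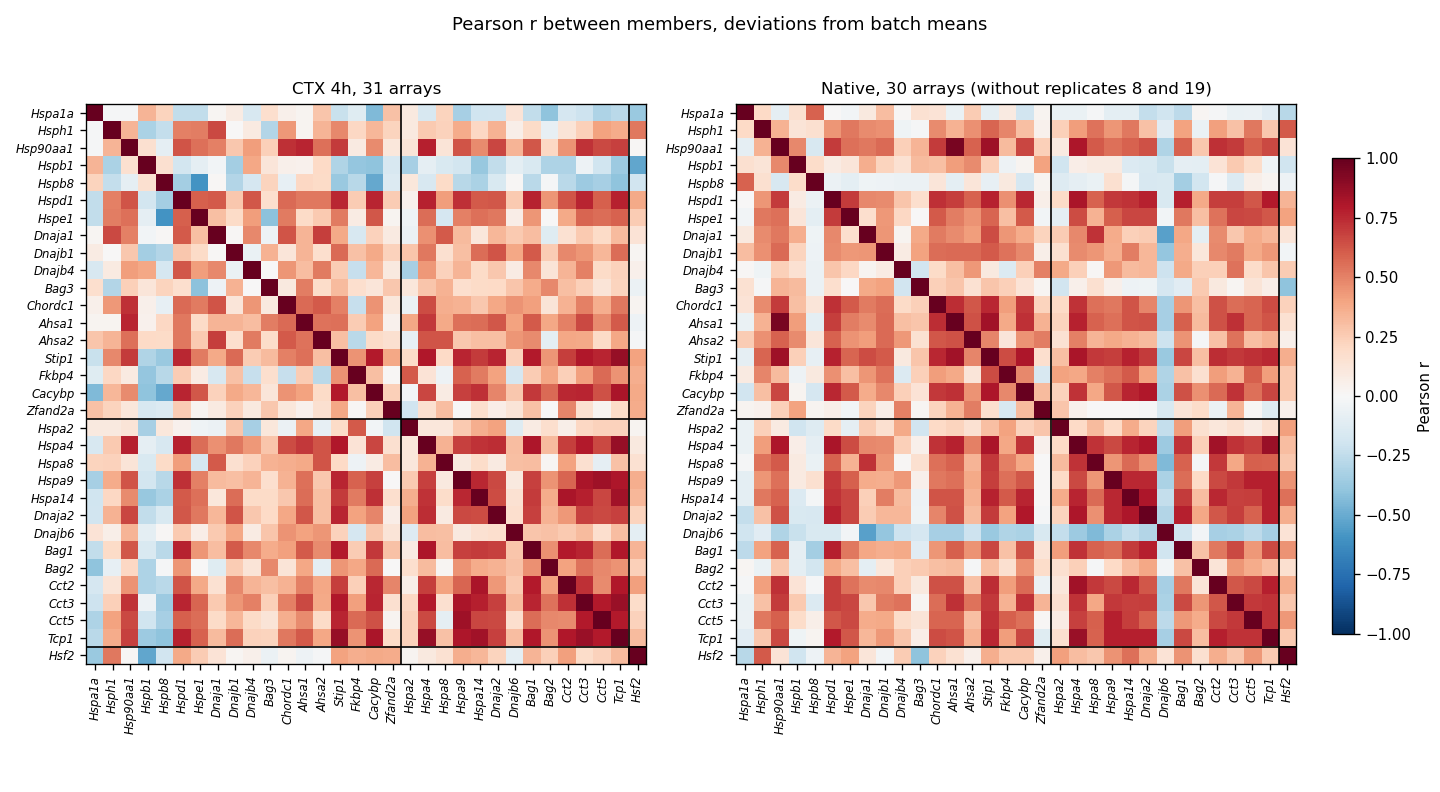
Pearson r between all pairs of the 32 members, as deviations from batch means, in 31 CTX 4h arrays (left) and 30 native arrays (right). Lines divide inducible, constitutive and regulator genes. Chaperonin subunits, Hspa4, Hspa9, Hspa14, Stip1 and Cacybp form one red field in both maps, while the rows of Hspa1a, Hspb1 and Hspb8 are mostly pale or blue, apart from Hspa1a with Hspb8 (0.59) in native arrays.

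The 3 pairs with the highest r over 32 native arrays were Hsp90aa1 with Ahsa1, Hsp90aa1 with Stip1, and Hspa4 with Tcp1. Hsp90aa1 and Ahsa1, the activator of its ATPase, had r = 0.76 and rho = 0.84 in 31 CTX 4h arrays, and r = 0.95 and rho = 0.96 in 30 native arrays (permutation within batches, two-sided, p = 2.00e-05 and 1.00e-05 for r, where 1.00e-05 is the smallest that the permutations can give). Adjusted over 496 pairs of members these p-values were 2.54e-04 and 2.36e-04. In native arrays r was 0.97 at 300 ng (n = 16), 0.93 in the series starting with 1 (n = 7), and 0.94 without the 2 arrays farthest from the median. Hsp90aa1 and Stip1 had r = 0.70 in CTX 4h and 0.85 in native arrays, with 0.92 at 300 ng and 0.34 in the series starting with 1, where 7 arrays leave r imprecise. Hspa4, an HSP110 relative, and Tcp1, a chaperonin subunit, had r = 0.87 in CTX 4h and 0.86 in native arrays, with 0.93 and 0.48 in the same batches. Other batches of native arrays held too few for an r.

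Hspd1 and Hspe1, partners in the mitochondrial chaperonin that share the promoter stretch printed above, were chosen after their values were seen. They had r = 0.60 and rho = 0.67 in CTX 4h and r = 0.70 and rho = 0.66 in native arrays (permutation within batches, adjusted p = 0.00444 and 0.00107 for r). Without the 2 farthest arrays the native r was 0.72, and within batches it was 0.77 at 300 ng and 0.28 in the series starting with 1. Their r was therefore lower than that of Hsp90aa1 with Ahsa1, a difference that was not tested.

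**Figure D4:**
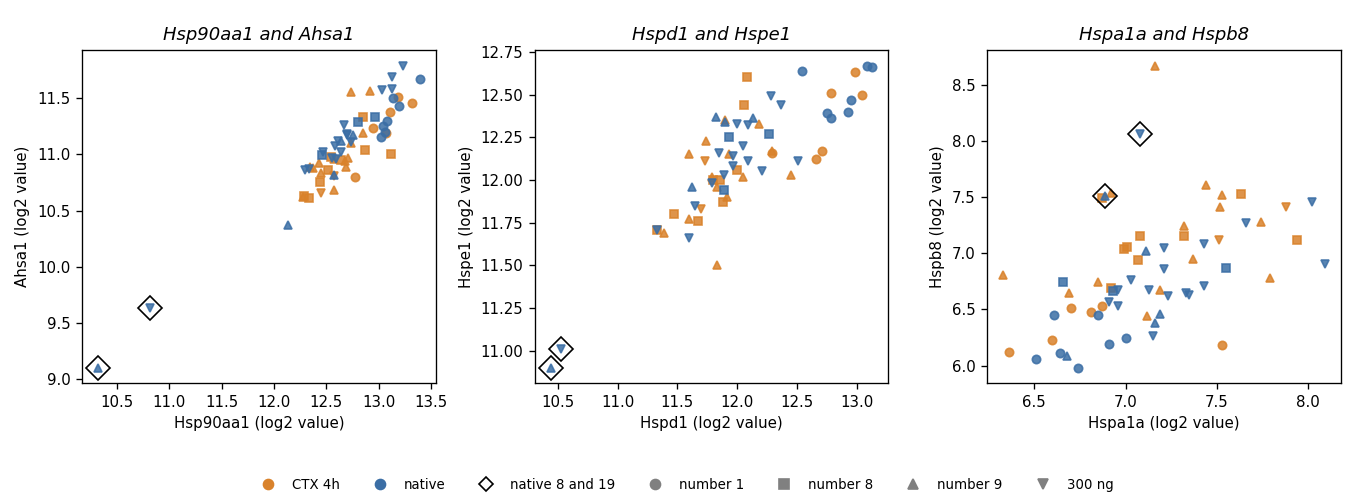
Deposited log2 values of 3 pairs of members in each of 63 arrays, with CTX 4h and native arrays in different colours and marker shapes for the number series and 300 ng. Large diamonds mark native replicates 8 and 19, which lie far below the others for Hsp90aa1 with Ahsa1 (10.32 and 10.82 for Hsp90aa1) and for Hspd1 with Hspe1. For Hspa1a they lie among the other arrays, and for Hspb8 above all other native arrays.

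Hspb8 was on one side of each of the 3 lowest pairs when all 32 native arrays were used. Its r was -0.70 with Hsp90aa1, -0.69 with Cacybp and -0.69 with Cct3. Without native replicates 8 and 19 these values were -0.16, -0.17 and -0.14 (permutation within batches, adjusted p = 0.584, 0.58 and 0.673), so the relations rested on those arrays. In CTX 4h arrays r was -0.09, -0.51 and -0.36 for the same pairs, and that with Cacybp passed (permutation within batches, adjusted p = 0.0449). The lowest r of any pair in CTX 4h, -0.60, was that of Hspb8 with Hspe1 (permutation within batches, adjusted p = 0.0017), against -0.10 in 30 native arrays (adjusted p = 0.744). Hspa1a and Hspb8, both of low mean level, were a pair chosen after its values were seen. They had r = 0.22 in CTX 4h and r = 0.59 and rho = 0.58 in 30 native arrays (permutation within batches, adjusted p = 0.406 and 0.00555 for r). Dnaja1 and Dnajb6, chosen likewise, had r = 0.26 in CTX 4h and -0.54 in 30 native arrays (adjusted p = 0.309 and 0.0122). That pair is uncertain, since the 2 probe sets of Dnaja1 did not follow each other (r = -0.19). Dnajb6 was dim, with a mean of 6.59 over all arrays, and 4 more probe sets name it together with other symbols. Of 496 pairs 154 passed in CTX 4h, 151 of them positive, and 191 in 30 native arrays, 190 of them positive. The same test was not run over all gene pairs. By size, r was over 0.5 for 26.2% of member pairs in CTX 4h and 32.3% in native arrays, against 7.58% and 4.17% of all gene pairs and 27% and 23% of pairs of genes with a mean of 10 or more. Differences in r between the groups were not tested.

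Members were also set against the mean of 18 MYC target genes, centred per gene, since the transgene drives MYC in all arrays. Over 30 native arrays 17 of 32 members rose with that score by both r and rho after adjustment over 192 relations of members with 6 scores. They were 8 of 18 inducible and 9 of 13 constitutive members, and 15 of 32 did so in CTX 4h, 5 inducible and 10 constitutive. The median r was 0.36 for inducible and 0.75 for constitutive members in CTX 4h, and 0.44 and 0.76 in native arrays. Many bright genes did the same. Among native arrays r was over 0.5 for 18 of 32 members, for 14.1% of all genes and for 53.9% of genes with a mean of 10 or more. In CTX 4h arrays it was over 0.5 for 16 of 32 members, 15.8% of all genes and 51.5% of genes with a mean of 10 or more.

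**Figure D5:**
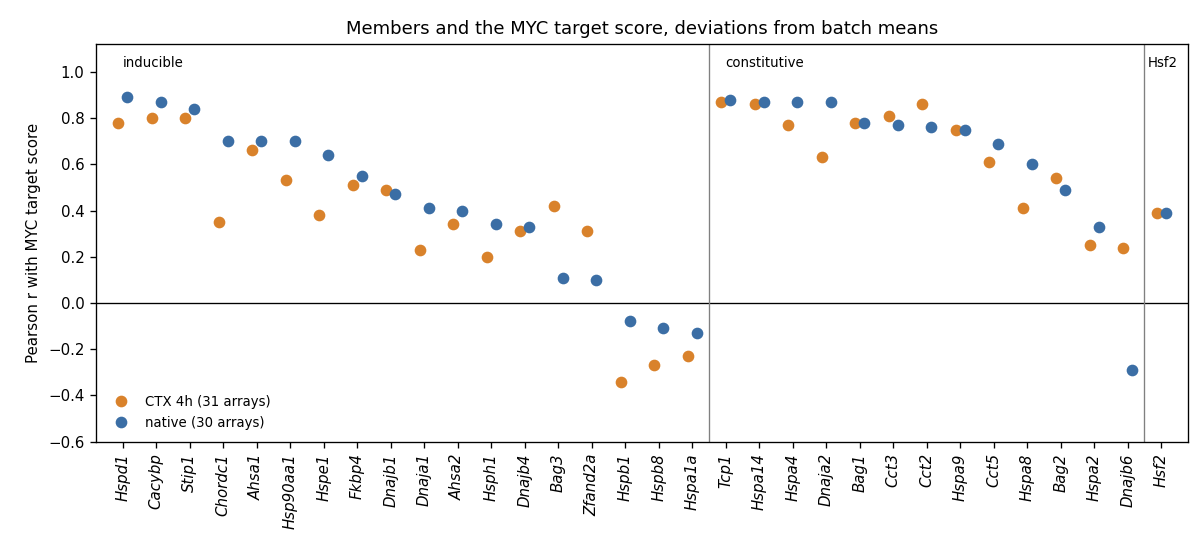
Pearson r of each member with the MYC target score, as deviations from batch means, in 31 CTX 4h arrays and 30 native arrays. Vertical lines divide inducible members, constitutive members and Hsf2. Most constitutive members lie above 0.5 in both groups, and Hspb1, Hspb8 and Hspa1a lie below 0 in both.

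Hspd1 had the highest native value, with r = 0.78 and rho = 0.73 in CTX 4h and r = 0.89 and rho = 0.85 in native arrays (permutation within batches, adjusted p = 1.48e-04 and 2.40e-04 for r). It held in both native batches large enough, at 0.90 for 300 ng and 0.93 for the series starting with 1, and at 0.90 without the 2 farthest arrays. Tcp1 had r = 0.87 in CTX 4h and 0.88 in native arrays, but 0.94 and 0.18 in those native batches, and Hspa4 had 0.77 in CTX 4h and 0.87 in native arrays, with 0.95 and 0.31. An r over the 7 arrays of series 1 is imprecise, and the difference between batches was not tested. Hspa1a, Hspb1 and Hspb8 had r of -0.23, -0.34 and -0.27 in CTX 4h and -0.13, -0.08 and -0.11 in native arrays, and none passed. The value of Hspa1a in CTX 4h moved with the arrays used, to -0.49 without the 2 farthest arrays, -0.39 in the series starting with 9 (n = 14) and -0.97 in that starting with 8 (n = 9). Those of Hspb1 were -0.46, -0.50 and -0.14 for the same sets, and those of Hspb8 -0.29, -0.39 and -0.30.

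The stress-inducible Hspa1a followed another list in treated lymphomas. Its r with the mean of 15 immediate early genes was 0.67 and rho 0.62 over 31 CTX 4h arrays (permutation within batches, p = 8.00e-05, adjusted 7.68e-04 for r). It was 0.75 in the series starting with 9 (n = 14), 0.68 in that starting with 8 (n = 9) and 0.64 without the 2 farthest arrays. Over 30 native arrays r was 0.18 (permutation within batches, adjusted p = 0.585), and the difference between groups was not tested. Over all genes 3.78% had an r over 0.5 with that score in CTX 4h. Hspa1a was the only member among them, and 1 of 32 members is near that background. In the negative direction 1 inducible member passed with the immediate early score by both r and rho in CTX 4h, and 1 with the stromal score. Neither count was made over all genes. The r of Hspa1a with the G2 and mitosis score was -0.50 in CTX 4h and -0.25 in native arrays (adjusted p = 0.0392 and 0.519). Its r with the macrophage score was 0.47 in CTX 4h and 0.40 in native arrays (permutation within batches, adjusted p = 0.0607 and 0.146), where rho in CTX 4h was 0.49 (adjusted p = 0.0453), and with the stromal score 0.47 and 0.38 (adjusted p = 0.0644 and 0.224).

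Members also differed in how far they varied among native lymphomas. Over 30 native arrays and as deviations from batch means, Hspa8, the constitutive HSP70, had an SD of 0.10, lower than all but 0.687% of genes. Its mean of 13.47 lies above those of 99.9% of genes, near the top of the scale, where array signal can be compressed, and the part of this in its SD was not tested. Hspb1 had the highest SD of the members at 0.82 (percentile 98.5), then Hsf2 at 0.67 (97) and Hsph1 at 0.54 (94.5). Hspb1 reached 11.23 in native replicate 21, against a native median of 7.87, and 10.06 and 9.78 in CTX 4h replicates 7 and 23. Chordc1 had an SD of 0.64 as deposited and 0.25 as deviations, and Zfand2a 0.41 and 0.19, so their spread lay mainly between batches.

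Other genes of the chaperone network were counted in the same model. Of 98 listed genes 94 were measured, and 2 were called higher and 0 lower, where 1.41% and 1.26% of all genes were, with a median of -0.06. Both, Atf3 and Serpinh1, belong to a list of other heat-responsive genes. Atf3, a stress transcription factor that is also an immediate early gene, differed by 0.63 ± 0.15 (SE, limma adjusted p = 0.0103), with a mean of 7.61 ± 0.68 (SD) in the 31 treated arrays and 7.20 ± 0.37 (SD) in the 32 native arrays. Serpinh1, the collagen chaperone, which stromal cells express strongly, differed by 0.37 ± 0.11 (SE, adjusted p = 0.0431), and with the 4 batches in the model by 0.34 (adjusted p = 0.115). No gene was called among the other HSP70 and J-domain genes, HSP90 cochaperones, small heat shock proteins, heat shock factors, or chaperones of the endoplasmic reticulum, mitochondria and cytosolic chaperonin. The lowest adjusted p there was that of Dnajc1, at -0.26 (adjusted p = 0.0725). Differences of the others with the smallest p in their list did not pass either, at -0.35 for Hspa4l and -0.33 for Hspa12a, -0.25, 0.47 and -0.32 for the HSP90 partners Cdc37l1, Fkbp5 and Tomm34, and 0.20, -0.20 and -0.29 for the endoplasmic reticulum genes Dnajc3, Hyou1 and Hspa13. They were -0.29, 0.05 and -0.12 for the cytosolic chaperonin and prefoldin genes Pfdn6, Cct6b and Pfdn1, and -0.22, -0.16 and -0.14 for the mitochondrial Dnaja3, Lonp1 and Clpp. They were 0.23, -0.12 and 0.07 for Cryab, Hspb11 and Cryaa, 0.08, -0.13 and -0.05 for Hsf4, Hsbp1 and Hsf3, and 0.43 for the heat-responsive Gadd45b. Without native replicates 8 and 19, 2 of the 94 were called higher and 11 lower, where 4.2% and 8.31% of all genes were.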

How the data were processed

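Probe set values were deposited by the authors on the log2 scale, and the submitters' processing notes name RMA and Partek 6.5. The deposited values were used as they are, and the number of arrays limits their precision. Symbols came from the platform annotation and RefSeq. Of 35557 probe sets 21789 had 1 symbol, 1621 several and 12147 none, and the probe set with the highest mean stood for a gene. Groups came from the array labels.

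A linear model with terms for treatment and RNA input was fitted to all 19938 genes (limma 3.58.1, R 4.3.3, moderated statistics), and p-values were adjusted by Benjamini-Hochberg over all genes at 0.05. Correlations used 100000 permutations within batches (Python 3.11.15, numpy 2.4.6), and figures matplotlib 3.10.9. On simulated data for this comparison with 19938 genes, 78 of 100 genes shifted by 0.5 and 95 of 100 shifted by 1 were called, and 2 of 19738 unshifted genes. The simulated noise was independent between genes and held no batch differences and no arrays that stood apart. These rates therefore need not hold for the real arrays. Alternatives covered batch terms, RNA input, scores, weights, scaling, probe sets and left-out arrays. The model with batches but without native replicates 8 and 19, probe sets at the gene's own place, and the alternatives for correlations without those arrays or in CTX 4h arrays, together with the RNA input model within numbers starting with 8 or 9 and the values without native replicate 8, were chosen after seeing the data.

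Named were all measured members, the 3 highest and 3 lowest pairs by r over native arrays, up to 3 genes of smallest p in each other chaperone list and the 5 genes most and least like the core targets. Members and lists were chosen with earlier results of these data known. Promoter windows are from RefSeq, GRCm38.p6.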

Additional observations from a re-analysis of the deposited data

How the results depend on the processing

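The count of members called, 1 with treatment and RNA input, was 0 without the RNA input term, with the 4 batches, in 100 ng arrays alone, in 300 ng arrays alone, with the small RNA score, with the macrophage and stromal scores, and when a fold of 1.5 was also required. It was 9 (1 higher, 8 lower) without native replicates 8 and 19, 21 (2 higher, 19 lower) with array weights, 2 with the MYC target score and 2 with the 4 batches and without those arrays. Among genes above the median level it was 1, with Chordc1 lower, as Hspb8 was not tested there. Leaving out 1 array at a time gave 0 to 4, with 4 (1 higher, 3 lower) without native replicate 8. Over all genes 281 were called higher and 251 lower, against 144 and 66 with the 4 batches, 838 and 1657 without native replicates 8 and 19, 551 and 1034 without native replicate 8 alone, and 2151 and 3677 with array weights. They were 118 and 183 without the RNA input term, 30 and 20 in 100 ng arrays alone, 238 and 114 in 300 ng arrays alone, 24 and 2 with the small RNA score, 49 and 105 with the macrophage and stromal scores, 355 and 465 with the MYC target score, 193 and 145 with a common median, and 136 and 105 without CTX 4h replicate 30. The median r of inducible pairs, 0.46 over 32 native arrays as deposited, was 0.24 after quantile normalization, 0.20 for core targets alone, 0.32 as deviations from batch means without native replicates 8 and 19, and 0.45 to 0.51 with 1 array left out. Pairs of members that passed numbered 314 in 32 native arrays, 191 without replicates 8 and 19, and 154 in CTX 4h arrays. The count of 0 for interactions was the same under each alternative run. The count of 1 member by RNA input was 0 in native arrays with numbers starting with 8 or 9, with and without native replicates 8 and 19, an alternative chosen after seeing the data with fewer arrays, and 1 under the others run, while 27 higher and 3 lower calls over all genes were 0 and 0 there, 136 and 55 without native replicates 8 and 19, 113 and 69 after quantile normalization and 15 and 4 with a common median. For single members, apart from 1-array omissions, 432 values kept their direction and call, 73 moved, 31 gained a call and 6 lost one, and no called value changed sign. The cause of these changes was not tested. No paired analysis was possible because each array has its own lymphoma number and no replicate number links CTX 4h to native arrays.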

Other observations

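The genes outside the list whose values most resembled the mean of the 7 measured core HSF1 targets were ranked over native arrays, as deviations from batch means. Over 32 arrays the highest r were those of Alg14 (0.82), Rmc1 (0.82), P4ha1 (0.81), Tial1 (0.79) and Ppid (0.79), and the lowest those of Gm10858 (-0.74), Serpinb9e, Gng7, Tmc4 and D7Ertd443e (-0.71 each). P4ha1 encodes a collagen prolyl hydroxylase subunit and Ppid an HSP90-binding cyclophilin. Without native replicates 8 and 19 the highest were Sra1 (0.76), P4ha1 (0.71), Sf3b5 (0.70), Mfsd11 (0.69) and Alg14 (0.68), so P4ha1 and Alg14 were among the 5 highest in both sets. The lowest were then Gm13375 (-0.67), Rab11fip2 (-0.64), Fhod3 (-0.64), Cirbp (-0.63), which encodes a cold-inducible RNA-binding protein, and Itpr3os (-0.63). In the 31 CTX 4h arrays r was 0.67 for P4ha1 and 0.55 for Alg14, but 0.17 for Sf3b5, -0.09 for Cirbp and 0.13 for Gm13375. These are descriptions over deviations from batch means and carry no test, and the part of cell makeup in them was not tested.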
